A study of Mus musculus with 9 samples.

Results

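The genes described here are 9 genes of spermatogonia that have begun to differentiate, chosen by symbol from the 56691 genes of the count table: Kit, Stra8, Sohlh1, Sohlh2, Dmrtb1, Ccnd2, Rhox13, Uchl1 and Taf4b. They were chosen by gene name, at a time when earlier results of these data were known. Of the 9, 8 had enough counts to be tested, and Rhox13 did not. They were measured in whole mouse testis on postnatal day 7, in 9 libraries of mRNA captured with oligo(dT) beads. The libraries form 3 groups of 3: wild type (WT), a knockout labelled Gm1142-/-, and a double knockout labelled Gm1142-/- Gm4779-/-, in which both genes were targeted. The labels describe neither the alleles nor the strain nor the number of animals behind a library, so p-values measure the spread between libraries, which may in part be technical.

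On postnatal day 7 the seminiferous cords of the mouse hold spermatogonia and immature Sertoli cells. Spermatogonia leave the undifferentiated state when retinoic acid, made and degraded in and around the cords, acts through its nuclear receptors. They then raise KIT, the receptor tyrosine kinase for the ligand encoded by Kitl that Sertoli cells present, and STRA8, a regulator needed for entry into meiosis. SOHLH1 and SOHLH2 are basic helix-loop-helix transcription factors that spermatogonia need in order to differentiate and to express Kit. Dmrtb1 (DMRT6) encodes a DM-domain factor of the step from mitotic to meiotic divisions, Taf4b a subunit of the TFIID complex used in germ cells, and Rhox13 a homeobox protein raised by retinoic acid. Ccnd2 encodes cyclin D2, a driver of the G1 phase, and Uchl1 a ubiquitin C-terminal hydrolase that marks spermatogonia from the earliest stages on. Not every member is restricted to this stage: Uchl1, Taf4b and Sohlh1 are also known from undifferentiated spermatogonia, Ccnd2 is used by somatic cells, and Kit by Leydig cells and mast cells. In RNA from whole testis, a change in the number of such cells and a change in RNA per cell cannot be told apart.

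The sequence upstream of the start site is shown for 4 of the members, because the regulators named above read short DNA motifs. The 4 are examples, and they include Sohlh1, the window with the most E-boxes and GC boxes. Sequences are from RefSeq on GRCm38.p6, on the strand of the gene, 5′ to 3′, with the matches in capitals. Positions are counted backwards from the start site, at -1 for the base before it. The search covered both strands of the 250 bases upstream for CANNTG (the E-box bound by helix-loop-helix factors), for the hexamer that retinoic acid receptors bind in pairs (AGGTCA, with the first letter also G, the third also T, or both), for ACANTGT (the core bound by DM-domain factors) and for GGGCGG (the GC box).
Sohlh1 (chr2:25847249-25847498, minus strand): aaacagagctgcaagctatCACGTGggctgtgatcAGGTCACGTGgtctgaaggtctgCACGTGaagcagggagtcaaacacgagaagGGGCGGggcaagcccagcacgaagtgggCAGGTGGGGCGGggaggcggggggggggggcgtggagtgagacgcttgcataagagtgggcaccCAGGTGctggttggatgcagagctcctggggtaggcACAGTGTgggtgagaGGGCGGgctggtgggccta
Stra8, first hexamer (chr6:34920742-34920771, plus strand): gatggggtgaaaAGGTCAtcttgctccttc
Stra8, second hexamer (chr6:34920898-34920927, plus strand): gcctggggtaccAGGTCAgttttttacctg
Kit (chr5:75574737-75574915, plus strand): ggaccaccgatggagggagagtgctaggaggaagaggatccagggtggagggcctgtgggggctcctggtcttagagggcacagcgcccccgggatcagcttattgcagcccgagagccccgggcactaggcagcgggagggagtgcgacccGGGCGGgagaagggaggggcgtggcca
Dmrtb1 (chr4:107684231-107684480, minus strand): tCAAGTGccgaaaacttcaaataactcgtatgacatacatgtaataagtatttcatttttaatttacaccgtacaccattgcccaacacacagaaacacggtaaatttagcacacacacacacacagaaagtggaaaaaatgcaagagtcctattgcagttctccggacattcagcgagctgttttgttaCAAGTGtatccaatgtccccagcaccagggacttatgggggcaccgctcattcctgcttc
The Sohlh1 window held 5 E-boxes, 3 of them the palindrome CACGTG at -231, -211 and -192, and 3 GC boxes. Its hexamer AGGTCA at -215 to -210 shares bases with the E-box at -211, and it also held ACAGTGT at -34. The Stra8 window held the hexamer AGGTCA at -194 to -189 and again at -38 to -33, and ACAATGT at -145. Because the annotation places the first base of that window in an exon of Stra8, 30 bases around each hexamer are printed. The window spans 34920698 to 34920947 on chromosome 6, while the annotated gene starts at 34920163, so the start site used lies inside the gene. The Kit window, printed up to the first annotated exon, held 1 GC box at -98 and none of the other motifs. The Dmrtb1 window at the start site farther upstream held the E-box CAAGTG at -249 and -60. The other Dmrtb1 start site had 3 E-boxes and 1 GC box. Of the members not printed, Sohlh2 held 1 E-box and 1 GC box, Rhox13 held 1 E-box and Uchl1 none of the 4. These 7 members had a window, and Ccnd2 and Taf4b were not searched. Such letters are common: among 32851 windows of the same length, 66.2% held an E-box, 38.6% a hexamer, 32.7% a GC box and 6.47% the DM-domain core. A match describes these letters and is no evidence of binding in these testes.

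Depth was 4370124 to 5243756 counts in 8 libraries and 8359594 in double knockout replicate 2. Gm1142, listed under the symbol 8030474K03Rik, and Gm4779 had 0 counts in the 3 double knockout libraries, which allows up to 0.338 to 0.679 CPM (counts per 1000000 counts of the library, with library sizes scaled by TMM) for 3 counts, counting error only. In the libraries labelled Gm1142 knockout, Gm1142 had 46 to 65 counts, against 41 to 56 in WT. The place of the lesion was not given, so a count over the gene does not check that label, and these libraries are named by their label throughout. They stood apart from the other libraries: of 17251 genes tested, 18.5% differed between them and WT at an adjusted p under 0.05 (edgeR's quasi-likelihood test, adjusted over all genes) and 19.1% between them and the double knockout. Between the double knockout and WT, 0.0927% did. Mitochondrial transcripts took 32.5% to 38.9% of counts in these libraries, 29.4% to 32.7% in WT and 27.1% to 32.9% in the double knockout.

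All 9 members had counts in every WT library. Per kilobase of annotated exon (GENCODE M21), Uchl1 had the highest level, 31.7 ± 0.582 CPM per kb (SD, n = 3). Ccnd2 at 18.8 ± 1.65 and Sohlh1 at 16.5 ± 0.874 CPM per kb came next, and their ranges overlapped. Stra8 at 9.14 ± 5.39 and Sohlh2 at 5.51 CPM per kb also overlapped, since Stra8 varied from 5.31 to 15.3 between the WT libraries. Kit followed at 3.62 CPM per kb, overlapping with Taf4b at 2.72. Dmrtb1, at 0.620 to 1.61, and Rhox13, at 0.246 to 0.450 CPM per kb, were the lowest. The files were made on another build (mm39), so the exon lengths describe the reference and not the authors' gene models.

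**Figure D1:**
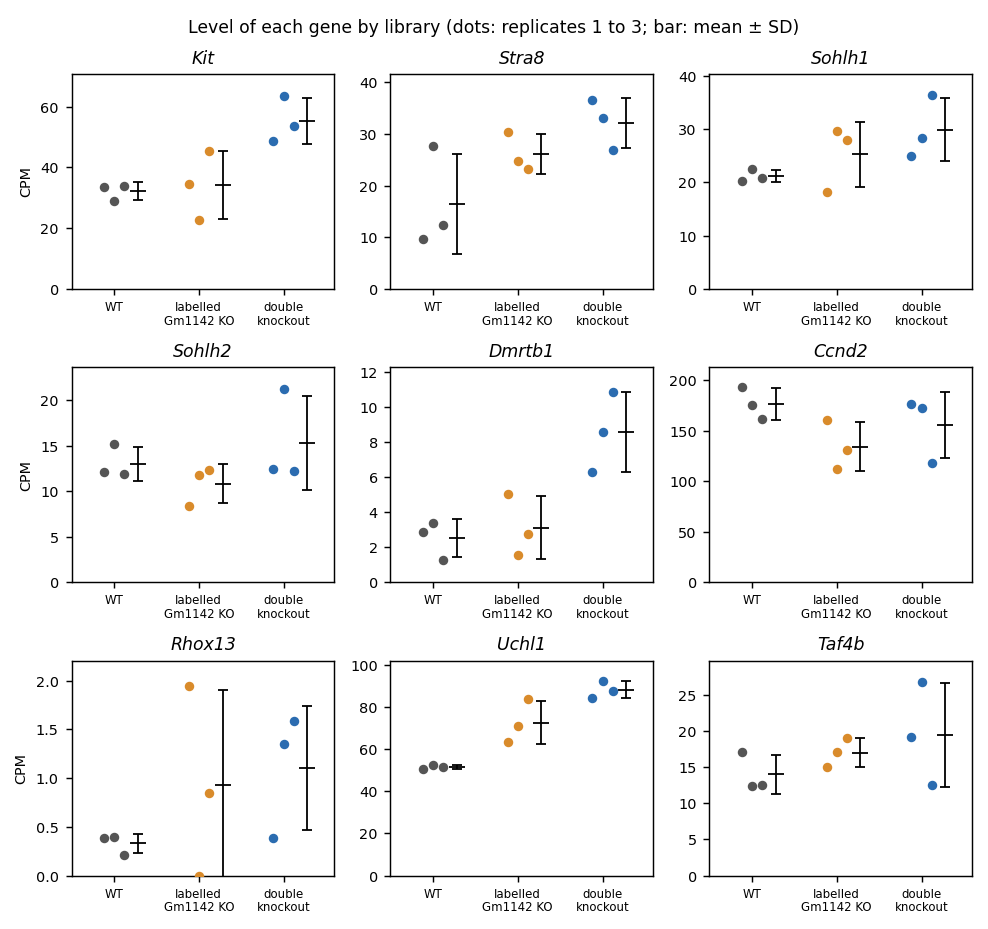
Level of each of the 9 genes in CPM (vertical axis, from 0) in WT, in the libraries labelled Gm1142 knockout and in the double knockout; dots are replicates 1 to 3 from left to right, the bar is the mean ± SD, cut off at 0 for Rhox13. All 3 double knockout libraries lie above all WT libraries for Kit, Sohlh1, Dmrtb1 and Uchl1, and Uchl1 is also above WT in the libraries labelled Gm1142 knockout.

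Members were mostly higher in the double knockout than in WT, and few of these differences passed the test over all genes. In the double knockout against WT, 7 of the 8 tested members had a positive log2 fold change, as had 52.3% of all genes, and the median was 0.63 against 0.02 over all genes. In that comparison 1 of 8, Uchl1, passed at an adjusted p under 0.05, where 0.0927% of all genes did, and 5 of 8 had an unadjusted p under 0.05, where 8.95% of all genes did. The 3 double knockout libraries were above the 3 WT libraries for 4 members, against 8.28% of all genes. In the libraries labelled Gm1142 knockout against WT, 1 of 8 members passed, again Uchl1, which is below the 18.5% of all genes that passed in either direction. There 6 of 8 log2 fold changes were positive, against 49.3% of all genes, and the median was 0.26 against -0.0088 over all genes. In that comparison 1 member, Uchl1, lay above WT in every library, as did 18.7% of all genes, and 1, Ccnd2, lay below, as did 17.2%. In the double knockout against the libraries labelled Gm1142 knockout, 2 of 8 passed, Kit and Dmrtb1, where 19.1% of all genes did, and all 8 log2 fold changes were positive, against 52.6% over all genes, with a median of 0.29. The double knockout libraries lay above the others for 3 members, Kit, Dmrtb1 and Uchl1, against 16.3% of all genes. The comparisons share groups, so they are not independent of each other. With a library left out, the number of members that passed went from 0 to 2 in each comparison. It was 0 against WT without WT replicate 1 or WT replicate 3, for both knockout groups. It was 0 for the libraries labelled Gm1142 knockout against WT without their replicate 3, and 2 without their replicate 1 or without double knockout replicate 3. It was 0 for the double knockout against WT without double knockout replicate 2 or 3, and 2 without replicate 2 labelled Gm1142 knockout. Between the knockout groups it was 0 without replicate 2 of either, and 1 without replicate 3 of either.

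**Figure D2:**
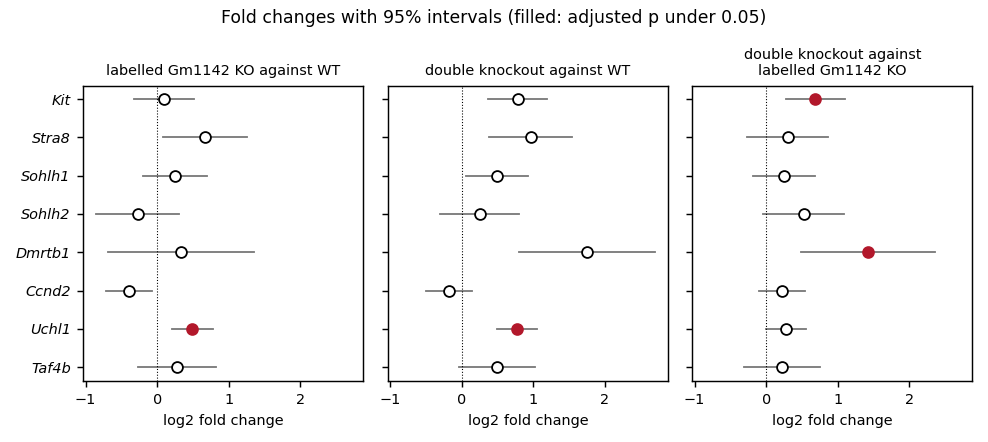
Log2 fold change of each tested gene (horizontal axis) in the 3 comparisons, with its 95% interval as a line; filled points have an adjusted p under 0.05. Uchl1 is filled in both comparisons with WT, and Kit and Dmrtb1 between the knockout groups.

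Kit, the receptor that defines the stage, was highest in the double knockout. Its level was 48.6, 63.5 and 53.7 CPM in the 3 double knockout libraries, 33.7, 29.0 and 34.0 CPM in WT, and 34.6, 22.8 and 45.4 CPM in those labelled Gm1142 knockout. The double knockout libraries lay above all 6 others, and the other groups overlapped. Kit was higher in the double knockout than in the libraries labelled Gm1142 knockout by 0.69 on the log2 scale (SE 0.20, adjusted p = 0.0182). That call was lost without replicate 2 labelled Gm1142 knockout (adjusted p = 0.0918), without double knockout replicate 2 (0.0972) and without both (log2 fold change 0.36, adjusted p = 0.242). Against WT the log2 fold change was 0.78 (SE 0.20, 95% interval 0.37 to 1.19), a 1.72-fold higher level, with an adjusted p of 0.182 that did not pass. It passed without replicate 2 labelled Gm1142 knockout (0.0408), with the compared groups fitted alone (0.0425) and with no filter on low counts (0.00702). DESeq2 gave 0.0760 and limma-voom 0.125. In the libraries labelled Gm1142 knockout Kit differed from WT by 0.09 (95% interval -0.33 to 0.52), an estimate that fell to -0.17 without their replicate 3.

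Its ligand Kitl, which Sertoli cells make, was lowest in the libraries labelled Gm1142 knockout. Kitl was at 155, 145 and 134 CPM in WT, 111, 72.6 and 99.9 CPM in those labelled Gm1142 knockout, and 153, 224 and 136 CPM in the double knockout. The libraries labelled Gm1142 knockout lay below all others. Kitl fell there by 0.61 on the log2 scale against WT (SE 0.17, adjusted p = 0.0172), and was higher by 0.86 in the double knockout than in them (SE 0.17, adjusted p = 0.00150). The call against WT was lost without WT replicate 1 (adjusted p = 0.0802) or 2 (0.0545) or replicate 2 labelled Gm1142 knockout (0.0677). Between the double knockout and WT it differed by 0.25 (adjusted p = 0.698). The summed level of Sertoli-cell markers was also lower in the libraries labelled Gm1142 knockout than in WT. They summed to 1839 to 2042 CPM there, against 2136 to 2370 CPM in WT and 1881 to 2476 CPM in the double knockout. Of 14 such markers tested against WT, 4 fell and 1 rose, where 18.5% of all genes passed, and the median was -0.37. Between the knockout groups 6 of the 14 were higher and 1 lower in the double knockout, where 19.1% of all genes passed. Sox9, a transcription factor of Sertoli cells chosen after its values were seen, was at 18.5 ± 6.23 CPM in those labelled Gm1142 knockout against 51.8 ± 3.76 CPM in WT (adjusted p = 0.000156). Other markers of the list went the other way, and 4 of the 14 had a positive log2 fold change against WT. In that comparison 7 lay below WT in every library, as did 17.2% of all genes, and 3 above, as did 18.7%. Dmrt1, also on that list, was at 120 CPM in those labelled Gm1142 knockout against 94.7 CPM in WT. The part of Sertoli cells in the level of Kitl was not tested. Kit is also made by Leydig cells and mast cells. The summed Leydig-cell markers ranged from 1210 to 1411 CPM in WT, from 894 to 1210 CPM in those labelled Gm1142 knockout and from 937 to 1337 CPM in the double knockout. The 6 mast-cell markers summed to 4.98 to 7.29, 2.56 to 5.83 and 4.85 to 8.15 CPM in the same order, with Fcer1a and Ms4a2 at 0 in all WT libraries. Both sums overlapped between the double knockout and WT, and the part of these cells in the level of Kit was not tested.

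Stra8, the retinoic acid target that opens the way to meiosis, varied widely between the WT libraries. Its level was 9.57, 27.6 and 12.3 CPM in WT, 30.5, 24.8 and 23.2 CPM in those labelled Gm1142 knockout, and 36.5, 33.1 and 27.0 CPM in the double knockout. WT replicate 2 lay within the range of both knockout groups, and the other WT libraries lay below all 6 knockout libraries. The log2 fold change against WT was 0.97 in the double knockout (SE 0.28, adjusted p = 0.264) and 0.67 in the libraries labelled Gm1142 knockout (SE 0.28, adjusted p = 0.110), and neither passed. Without WT replicate 2 both passed, at 1.56 (adjusted p = 0.00848) and 1.26 (adjusted p = 0.00252), and so did both with no filter on low counts (0.00500 and 0.0353). The knockout groups differed by 0.30 (95% interval -0.26 to 0.86, adjusted p = 0.480).

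Rhox13, the homeobox gene raised by retinoic acid, was too low to test. It had 2, 2 and 1 counts in WT, 10, 0 and 4 in the libraries labelled Gm1142 knockout and 2, 12 and 7 in the double knockout. The library with 0 counts allows up to 0.767 CPM, and the groups overlapped. No difference was detectable at this depth.

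Among the transcription factors, Dmrtb1 had the largest fold change of the members in the double knockout. Its counts were 15, 17 and 6 in WT, 26, 6 and 13 in the libraries labelled Gm1142 knockout, and 33, 76 and 48 in the double knockout. These correspond to 2.87, 3.35 and 1.29 CPM, to 5.05, 1.53 and 2.77 CPM, and to 6.31, 8.57 and 10.9 CPM. The 3 double knockout libraries lay above all 6 others. Dmrtb1 was higher in the double knockout than in the libraries labelled Gm1142 knockout by 1.42 on the log2 scale (SE 0.45, adjusted p = 0.0305). That call was lost without replicate 2 (adjusted p = 0.114) or replicate 3 (0.0979) labelled Gm1142 knockout, without double knockout replicate 2 (0.0836) or 3 (0.0996), and without replicate 2 of both groups (0.195). Against WT the level was 3.37-fold higher, a log2 fold change of 1.75 (SE 0.46, 95% interval 0.80 to 2.70), with an adjusted p of 0.209 that passed with no filter on low counts (0.0307). Between the libraries labelled Gm1142 knockout and WT, the value of 0.33 became -0.21 without their replicate 1.

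The helix-loop-helix genes Sohlh1 and Sohlh2 did not pass in any comparison. Sohlh1 was at 20.3, 22.5 and 20.9 CPM in WT, 18.3, 29.7 and 27.9 CPM in those labelled Gm1142 knockout and 24.9, 28.4 and 36.5 CPM in the double knockout. The double knockout libraries lay above those of WT and overlapped with the other knockout group. The log2 fold change against WT was 0.49 in the double knockout (SE 0.21, adjusted p = 0.499). Sohlh2 ranged from 11.8 to 15.2 CPM in WT, from 8.35 to 12.4 CPM in those labelled Gm1142 knockout and from 12.2 to 21.2 CPM in the double knockout. Its value of 21.2 CPM came from double knockout replicate 2, and the other double knockout libraries were within the WT range. Its log2 fold change in the double knockout against WT was 0.25 (adjusted p = 0.839), and -0.092 without that library. Taf4b, the TFIID subunit, was at 14.0 ± 2.65 CPM in WT, 17.0 ± 2.01 CPM in those labelled Gm1142 knockout and 19.4 ± 7.14 CPM in the double knockout, and all groups overlapped. Its log2 fold change of 0.22 between the knockout groups turned to -0.084 without double knockout replicate 2.

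Ccnd2, the cyclin of proliferating spermatogonia and somatic cells, had no positive fold change against WT. It was at 193, 175 and 162 CPM in WT, 160, 112 and 130 CPM in those labelled Gm1142 knockout and 177, 172 and 118 CPM in the double knockout. The libraries labelled Gm1142 knockout lay below the WT libraries, with 160 against 162 CPM at the boundary. Their log2 fold change against WT was -0.39 (SE 0.16, adjusted p = 0.0860). The value passed without their replicate 1 (-0.54, adjusted p = 0.0273), without double knockout replicate 3 (0.0387), with the compared groups fitted alone (0.0408) and with no filter (0.0365). Between the double knockout and WT it was -0.18 (95% interval -0.50 to 0.14). Reads of Ccnd2 cannot be told from those of 9330179D12Rik and Gm43126, whose exons overlap it, unless strand was used in counting. These held at most 18 and 4 counts summed over a group.

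Uchl1, the hydrolase of spermatogonia, was the member that passed in both comparisons with WT. It was at 50.7, 52.6 and 51.7 CPM in WT, 63.3, 70.8 and 83.9 CPM in those labelled Gm1142 knockout and 84.4, 92.4 and 87.9 CPM in the double knockout. The 3 groups did not overlap, and the WT libraries varied least, with an SD of 0.950 CPM. Uchl1 was higher than in WT by 0.49 on the log2 scale in the libraries labelled Gm1142 knockout (SE 0.14, adjusted p = 0.0163) and by 0.77 in the double knockout (SE 0.14, adjusted p = 0.0177). Between the knockout groups the difference was 0.28 (SE 0.13, adjusted p = 0.155). The first call was lost without WT replicate 1 (adjusted p = 0.0707), 2 (0.0527) or 3 (0.0565) and without replicate 3 labelled Gm1142 knockout (0.132). The call in the double knockout was lost without WT replicate 1 (0.230), 2 (0.113) or 3 (0.127) and without double knockout replicate 2 (0.126) or 3 (0.0669), while the log2 fold change stayed between 0.72 and 0.79 with any library left out. With mitochondrial genes removed the values against WT were 0.49 (adjusted p = 0.0175) and 0.76 (adjusted p = 0.0281). Reads of Uchl1 cannot be told from those of its antisense gene Uchl1os unless strand was used. Uchl1os was at 4.55 CPM in WT, 2.84 CPM in those labelled Gm1142 knockout and 4.62 CPM in the double knockout. Uchl1 is also made by neurons. The summed markers of neurons and Schwann cells ranged from 64.1 to 85.6 CPM in WT, from 37.1 to 52.6 CPM in those labelled Gm1142 knockout, below all WT libraries, and from 68.3 to 72.6 CPM in the double knockout. Of these 7 markers 2 had enough counts to be tested, and the part of such cells in the level of Uchl1 was not tested.

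The summed level of genes used by germ cells of all stages was also highest in the double knockout. The 11 such genes measured, among them Dazl and Ddx4, encoding RNA-binding proteins of the germ line, summed to 522 to 607 CPM in WT, 449 to 574 CPM in those labelled Gm1142 knockout and 795 to 983 CPM in the double knockout. In the double knockout against WT all 11 fold changes were positive, where 52.3% of all genes were, with a median of 0.59. An unadjusted p under 0.05 was found for 10, where 8.95% of all genes had it. The adjusted test was passed by 1, Dazl, where 0.0927% of all genes passed. None passed without WT replicate 1 (adjusted p of Dazl 0.167) or 3 (0.114) or double knockout replicate 2 (0.0608), and 3 passed without replicate 2 labelled Gm1142 knockout. Dazl was at 348 ± 36.7 CPM in the double knockout, 195 ± 27.0 CPM in WT and 124 ± 18.7 CPM in those labelled Gm1142 knockout. It was lower in the latter than in WT (log2 fold change -0.66, adjusted p = 0.00208), 1 of 11 to pass, where 18.5% of all genes did. Between the knockout groups it was higher in the double knockout (1.49, adjusted p = 3.94e-07). Both calls held in all 17 alternatives. There 5 of the 11 passed, all higher in the double knockout, where 19.1% of all genes passed. That number was 1 without replicate 2 of both groups. Because the summed level of the 11 genes was higher in the double knockout, each member was also expressed as a percentage of this sum in the same library.

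Relative to the other germ-cell genes, the 3 groups overlapped in Kit. It was 5.90% ± 0.975 of the sum in WT, 6.54% ± 1.42 in the libraries labelled Gm1142 knockout and 6.20% ± 0.229 in the double knockout. Dmrtb1 was 0.448% in WT, 0.598% in the libraries labelled Gm1142 knockout and 0.962% in the double knockout, whose 3 libraries lay above those of WT. Over all genes, 0.29% had such a ratio above WT in every double knockout library, and 61% had it below, since the sum itself was higher there. Ccnd2 made up a smaller proportion, with 32.1% ± 4.01 in WT and 17.7% ± 4.46 in the double knockout, whose libraries lay below all 6 others. Between the knockout groups 57.2% of all genes had the ratio lower in every double knockout library. Sohlh2 was 2.35% in WT and 1.70% in the double knockout, again without overlap. Uchl1 had its highest proportion in the libraries labelled Gm1142 knockout, at 14.2% ± 1.83 against 9.40% ± 0.648 in WT and 9.96% ± 0.609 in the double knockout, above both without overlap, where 19.8% of all genes had the ratio above WT. Taf4b was 3.33% there and 2.18% in the double knockout, without overlap. Stra8 and Sohlh1 overlapped between all groups. The exact two-sided permutation test over 3 against 3 libraries cannot go below 0.1, which is its value for each of these 7 separations, and the p-values adjusted over 24 relations are 0.343. With Dazl left out of the sum, an alternative chosen after seeing the data, the separations of the double knockout from WT for Dmrtb1, Ccnd2 and Sohlh2 and of Uchl1 between the libraries labelled Gm1142 knockout and WT were still without overlap, and those between the knockout groups were not. Ccnd2 and Sohlh2 then also lay below WT in the libraries labelled Gm1142 knockout. The share of all genes with such separations was not computed for the sum without Dazl, so these separations cannot be set against it.

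**Figure D3:**
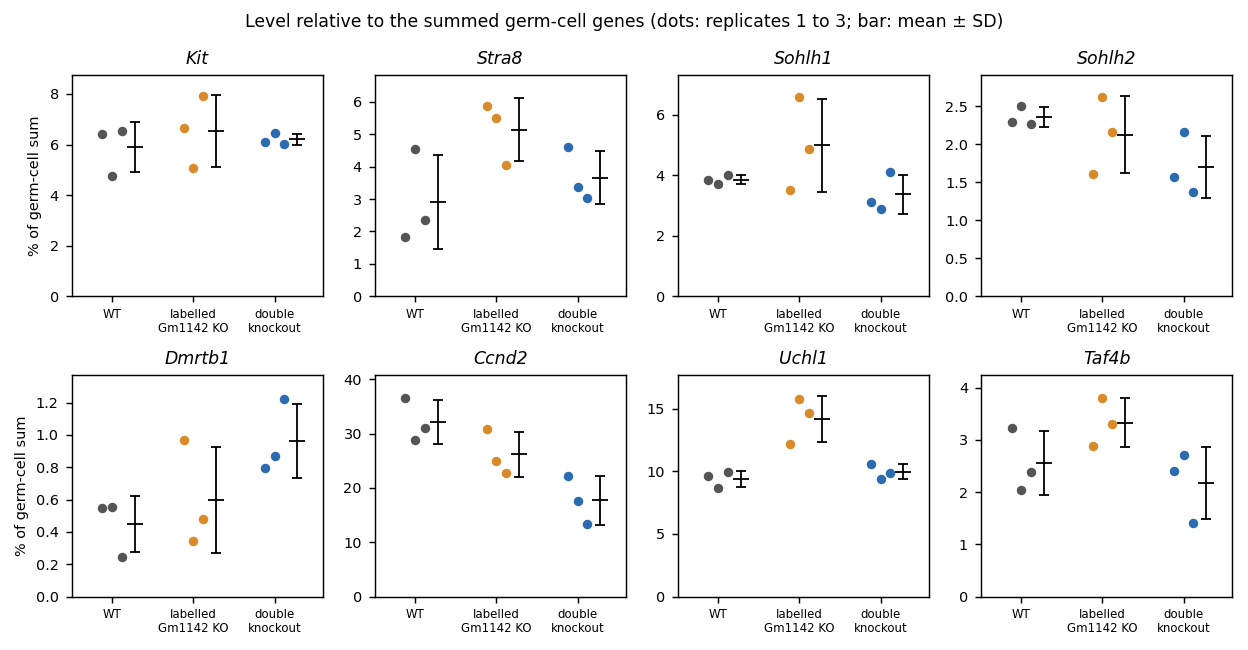
Each tested gene as a percentage of the summed CPM of 11 germ-cell genes in the same library (vertical axis, from 0); dots are replicates 1 to 3, bars the mean ± SD. Kit overlaps between the 3 groups, Dmrtb1 is higher and Ccnd2 and Sohlh2 are lower in the double knockout than in WT, and Uchl1 is highest in the libraries labelled Gm1142 knockout.

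Further genes of the differentiating stage showed the same sign in the double knockout without passing the test. Of 14 tested, 13 had a positive log2 fold change against WT, with a median of 0.66, and 8 had an unadjusted p under 0.05, where 52.3% and 8.95% of all genes did. None passed the adjusted edgeR test, where 0.0927% of all genes did, 1 passed in DESeq2 and 0 in limma-voom. Without replicate 2 labelled Gm1142 knockout 1 passed, and with no filter 3 did. Over all genes, 68 passed in DESeq2, 15 in limma-voom, 45 without that replicate and 110 with no filter. Ctcfl, encoding a germ-cell paralogue of CTCF, came closest, with 8, 7 and 6 counts in WT, 14, 10 and 11 in the libraries labelled Gm1142 knockout and 37, 50 and 29 in the double knockout. The 3 groups did not overlap, and the log2 fold change against WT was 2.17 (SE 0.45, adjusted p = 0.0788). Dnmt3b, the de novo DNA methyltransferase of differentiating spermatogonia, was at 21.2 ± 1.67, 30.3 ± 8.55 and 33.2 ± 1.68 CPM in the same order, and its log2 fold change in the double knockout was 0.65 (adjusted p = 0.302). Dmrt1, which restrains the entry of spermatogonia into meiosis and is also made by Sertoli cells, was at 94.7, 120 and 115 CPM (adjusted p = 0.534 in the double knockout). Rarg, the retinoic acid receptor of spermatogonia, was at 15.5, 15.9 and 18.9 CPM. Against the libraries labelled Gm1142 knockout, 4 of 14 were higher in the double knockout and none lower, where 19.1% of all genes passed: Ctcfl by 1.33 on the log2 scale, Tex15, needed for silencing of transposons, by 0.90, Dnmt3a, another DNA methyltransferase, by 0.52 and the protease gene Prss50 by 3.02. That number was 1 without replicate 2 or 3 labelled Gm1142 knockout and 2 without double knockout replicate 2 or 3, and 0 without replicate 2 of both groups. In the libraries labelled Gm1142 knockout against WT, 1 of 14 rose, Stk31 by 0.63, and 1 fell, Dnmt3a by 0.46, where 18.5% of all genes passed. The call of Stk31 was lost without WT replicate 1 or 3 or replicate 1 labelled Gm1142 knockout (adjusted p = 0.131, 0.139 and 0.143). That of Dnmt3a (adjusted p = 0.0473) was lost with the replicate block (0.0510), without WT replicate 1, 2 or 3 (0.203, 0.0823 and 0.0753), without replicate 2 or 3 labelled Gm1142 knockout (0.156 and 0.149), without replicate 2 of both knockout groups (0.0885) and without double knockout replicate 1 (0.0570).

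Genes of Kit signalling and of retinoic acid supply were followed next, and none passed in the double knockout against WT. Of 24 tested, 0 passed the adjusted edgeR, DESeq2 or limma-voom test, where 0.0927% of all genes passed in edgeR. An unadjusted p under 0.05 was found for 2 of the 24, where 8.95% of all genes had it, and the median was 0.11. Grb2, an adaptor of receptor tyrosine kinases, had the smallest p, with a log2 fold change of 0.58, followed by Cbl, a ubiquitin ligase that turns such receptors over, at 0.41. In the libraries labelled Gm1142 knockout against WT, 3 of 24 passed, where 18.5% of all genes did. Kitl fell as given above, and Cyp26b1, which degrades retinoic acid, fell from 70.5 ± 5.10 to 49.3 ± 9.03 CPM (log2 fold change -0.51, adjusted p = 0.0425). The call of Cyp26b1 was lost with the replicate block (adjusted p = 0.0592), in limma-voom (0.0518), without WT replicate 1, 2 or 3 (0.0841, 0.153 and 0.0847), without replicate 2 or 3 labelled Gm1142 knockout (0.150 and 0.0940), without replicate 2 of both knockout groups (0.0802) and without double knockout replicate 1 (0.0526). Shc1, an adaptor of receptor kinases, rose from 98.5 ± 4.53 to 129 ± 4.74 CPM (0.39, adjusted p = 0.0257), and passed in 12 of 17 alternatives. Its call was lost, among others, with no filter on low counts (0.0808), without WT replicate 1 or 3 and without replicate 3 labelled Gm1142 knockout. None of the 24 passed there without WT replicate 1, and 1 passed without WT replicate 2 or 3 or without replicate 3 labelled Gm1142 knockout. Between the knockout groups 5 of 24 passed, where 19.1% of all genes did. Kitl, Cyp26b1 and Aldh1a2, a retinoic acid synthase of the testis, were higher in the double knockout, by 0.86, 0.54 and 0.55. Rdh10, which makes the retinaldehyde from which retinoic acid is formed, and Shc1 were lower, by log2 fold changes of -0.65 and -0.48. The number that passed was 3 with the replicate block, with these groups fitted alone, without replicate 2 of either group and without double knockout replicate 1, and 2 without replicate 2 of both. The calls of Cyp26b1 and Aldh1a2 were lost with the replicate block (adjusted p = 0.0511 and 0.0538) and with these groups fitted alone (0.0630 and 0.0750). Cyp26b1 passed in 10 of 17 alternatives. It also lost the call without replicate 2 or 3 labelled Gm1142 knockout (0.130 and 0.0798) and without double knockout replicate 1 or 2 (0.0698 and 0.198). With replicate 2 of both groups left out its adjusted p was 0.423. Aldh1a2 (adjusted p = 0.0443) lost it with any 1 library left out other than replicate 1 labelled Gm1142 knockout (0.0546 to 0.157) and with no filter on low counts (0.0756).

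Markers of undifferentiated spermatogonia had a median fold change near that of all genes in the double knockout against WT. Of 16 tested, none passed in the double knockout against WT by edgeR, DESeq2 or limma-voom, where 0.0927% of all genes passed in edgeR. With no filter 1 passed, and 1 passed without replicate 2 labelled Gm1142 knockout, where 110 and 45 of all genes did. In the double knockout against WT, 2 of the 16 had an unadjusted p under 0.05, where 8.95% of all genes had it, and the median was 0.07. In every library 3 of the 16 lay below WT, as did 7.57% of all genes, and 2 lay above, as did 8.28%. The summed level of the 20 markers was 200 to 215 CPM in WT and 182 to 256 CPM in the double knockout. Gfra1, the receptor for the stem-cell factor GDNF, had a log2 fold change of -0.54 (adjusted p = 0.577), and Lin28a, an RNA-binding protein of progenitors, one of 0.91 (adjusted p = 0.241). Against the libraries labelled Gm1142 knockout, Zbtb16, a zinc-finger factor of progenitors, was higher in the double knockout by 0.69 and Lin28a by 0.94, 2 of 16, where 19.1% of all genes passed. That number was 0 without double knockout replicate 2 or replicate 2 of both groups, and 1 with these groups fitted alone, without double knockout replicate 1 or without replicate 2 or 3 labelled Gm1142 knockout. Of 13 meiotic genes tested, 1 passed in the double knockout against WT, where 0.0927% of all genes did, and the median of the 13 was 0.45. It was Sycp1, a protein of the synaptonemal complex, at 78.7 ± 14.3 against 36.8 ± 6.76 CPM (log2 fold change 1.10, adjusted p = 0.00280). The number of meiotic genes that passed was 0 without WT replicate 1 (adjusted p of Sycp1 0.0717), 2 without replicate 1 of either knockout group and 3 without replicate 2 labelled Gm1142 knockout. Against WT, 2 of the 13 passed in the libraries labelled Gm1142 knockout, where 18.5% of all genes did. Sycp1 was at 56.6 ± 2.46 CPM there (log2 fold change 0.62, adjusted p = 0.0130), a call lost without WT replicate 1 (0.0971). Smc1b, a meiotic cohesin subunit, was higher by 0.53 (adjusted p = 0.0481), and passed in 4 of 17 alternatives. Between the knockout groups 3 of 13 passed, where 19.1% of all genes did, and all 3 were higher in the double knockout: Sycp1 by 0.48, Sycp2, another protein of the synaptonemal complex, by 0.63 and Prdm9, which sets the sites of meiotic recombination, by 1.12. That number was 0 without replicate 1 labelled Gm1142 knockout or double knockout replicate 3, and 1 without replicate 2 or 3 labelled Gm1142 knockout or replicate 2 of both groups.

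Most markers of ducts and epididymis, such as Pax8 and Cdh16, were lower in the double knockout than in WT, in the direction opposite to the germ-cell lists. These examples were chosen after their values were seen, and another marker of the list, Lhx1, is also among the markers of undifferentiated spermatogonia. The 7 markers summed to 96.5 ± 13.4 CPM in WT, 82.7 ± 2.53 CPM in those labelled Gm1142 knockout and 57.6 ± 7.29 CPM in the double knockout (SD, n = 3). The 3 groups did not overlap, with at most 64.5 CPM in the double knockout and at least 86.1 CPM in WT. In the double knockout against WT the median was -0.58 and 5 of 7 lay below WT in every library, as did 7.57% of all genes. A positive log2 fold change was found for 1 of the 7, where 52.3% of all genes had one. None passed the adjusted edgeR test, where 0.0927% of all genes did, while 1 passed in DESeq2 and 0 in limma-voom. Over all genes, 68 passed in DESeq2 and 15 in limma-voom. An unadjusted p under 0.05 was found for 4 of the 7, where 8.95% of all genes had it. The part of such tissue in the levels of the members was not tested.

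**Figure D4:**
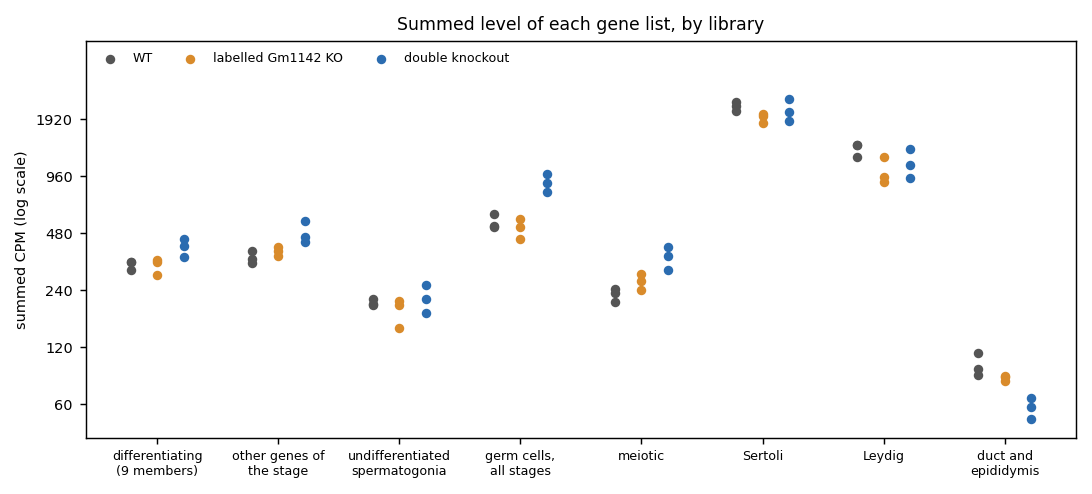
Summed CPM (log axis) of each gene list in each library; dots are libraries, coloured by group. The differentiating genes, further genes of the stage, germ-cell genes and meiotic genes are higher in the 3 double knockout libraries than in WT, markers of ducts and epididymis are lower there, and undifferentiated, Sertoli-cell and Leydig-cell markers overlap between those groups.

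Across the 9 libraries the members did not all follow one course. The summed level of the 9 was 306 to 339 CPM in WT, 290 to 346 CPM in those labelled Gm1142 knockout and 361 to 448 CPM in the double knockout. The log2 CPM of Kit and Dmrtb1 had the highest Pearson correlations with that of the summed germ-cell genes, 0.89 and 0.87, followed by Uchl1 at 0.69, Sohlh2 at 0.62, Sohlh1 at 0.53, Stra8 at 0.52, Taf4b at 0.36 and Ccnd2 at 0.12. These describe 9 libraries of 3 groups that share depth and composition, and the groups themselves set much of each value. Patterns were ranked over the other tested genes, leaving out rows without a symbol and predicted-gene or clone symbols. Most like the mean of the members were Akr1b8 (r = 0.967), Ftsj3 (0.943), Washc5 (0.936), Scaper (0.934) and Ints12 (0.933). Most like Kit were Poc1a (0.977), Mael (0.973) and Piwil2 (0.967), of which Mael is one of the 11 summed germ-cell genes. Most like Stra8 were Fam114a1 (0.942), Slc5a6 (0.925) and Zfat (0.920).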

How the data were processed

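The deposited table holds raw counts of reads per gene for 9 libraries, 1 column each. Per the submitters' processing notes the authors used cutadapt, Bowtie2, STAR and featureCounts on mm39. Versions, annotation, strand setting and the rule for multi-mapping reads, which matter for genes that overlap, are not given in the sources used here.

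Counts were tested with edgeR 4.0.16 in R 4.3.3. The default filter (minimum count 10, minimum total 15) left 17251 of 56691 genes. Library sizes were scaled by TMM (factors 0.856 to 1.07). All 9 libraries entered 1 quasi-likelihood fit by group (6 residual degrees of freedom). P-values were adjusted by Benjamini-Hochberg over all genes, and genes under 0.05 were called. The SE is the log2 fold change divided by the square root of F. The test was checked on simulated data. Levels are CPM with mean ± SD of 3 libraries, and a count of 0 was read as up to 3 counts. Such limits cover counting error only; no molecular identifiers are named, and PCR copies are not independent molecules.

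The 9 genes and the 15 gene lists were chosen with earlier results of these data known. Named genes were the members, a fixed set (Kitl, Dmrt1, Dnmt3b, Rarg) and called members of several lists, or else those with the smallest p. The genes most correlated with the members, Kit and Stra8 (log2 CPM, prior count 2) were also named. Gfra1, Sox9, Pax8 and Cdh16 were chosen after their values were seen. Of 166 list entries 165 were matched to the table. Replicate numbers are shared by the groups, but same-numbered libraries did not deviate together. Alternatives were DESeq2 1.42.0 and its size factors, limma-voom (limma 3.58.1), no filter, the compared groups alone, a replicate block, removal of mitochondrial genes, and leaving out libraries.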

Additional observations from a re-analysis of the deposited data

How the results depend on the processing

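Of 408 log2 fold changes of members under alternatives, 373 kept their direction and side of the threshold, 17 lost a call, 12 gained one and 6 changed sign. The changes of sign were Sohlh2 in the double knockout against WT (-0.079) and Taf4b between the knockout groups (-0.092) with replicate 2 of both knockout groups left out, and 4 with a library left out. Over the libraries left out, Kit in the libraries labelled Gm1142 knockout against WT ranged from -0.17 to 0.31 and Dmrtb1 there from -0.21 to 0.63, Sohlh2 in the double knockout against WT from -0.092 to 0.38, and Taf4b between the knockout groups from -0.084 to 0.43.

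In the libraries labelled Gm1142 knockout against WT, 3 members passed with no filter, 2 with the groups fitted alone and 0 to 2 with a library left out. In the double knockout against WT these numbers were 4, 2 and 0 to 2. Between the knockout groups 0 passed with replicate 2 of both left out, and 0 to 2 with a library left out. Over all genes, 16 passed in the double knockout against WT, 110 with no filter, 68 in DESeq2, 28 with the groups fitted alone and 9 to 45 with a library left out. The other comparisons had 3196 (2037 to 3380) and 3301 genes (2128 to 3219, and 2004 with replicate 2 of both left out). Correlations of same-numbered libraries were -0.27 to 0.10, and 3 of 9 libraries correlated best with their own number. With the replicate block 1, 1 and 2 members and 2921, 16 and 2965 genes passed. Depth limits Rhox13, whose log2 fold changes with no filter were 1.46, 1.67 and 0.21 (adjusted p = 0.550, 0.838 and 0.971). With Dazl left out of the germ-cell sum, 4 of 24 log2 ratios moved beyond their spread: Ccnd2 to -0.53 and Uchl1 to 0.36 in the libraries labelled Gm1142 knockout against WT, and Stra8 to -0.17 and Uchl1 to -0.18 between the knockout groups.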
